A study of Sus scrofa with 4 samples.

Results

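This account is about 6 microRNAs (miRNAs) that are abundant in white blood cells and platelets, miR-223, miR-142, miR-191, miR-425, miR-21 and miR-339, in exosomes of umbilical cord blood of newborn Yorkshire piglets. Every row of the deposited tables whose name carries one of these numbers was taken, whatever the strand and the species prefix, which gave 27 of 664 rows. Summed by strand of the hairpin (arm), they formed 12 of the 427 arms that remained after rows named as predicted candidates (PC-) were set aside. Growth-restricted piglets (IUGR, intrauterine growth restriction) were compared with normal littermates. Material of 3 piglets was pooled for every library, and 1 library each stood for IUGR vein, normal vein, IUGR artery and normal artery. All 4 pools share the breed, sampling at birth into EDTA, and exosomes pelleted at 160000 g from plasma passed through a 0.22 µm filter. The sample labels name the vessel alone, and the condition was read from the letters I and N of the table columns.

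A miRNA hairpin is cut into a short duplex, and usually one arm is loaded into Argonaute, where bases 2 to 8 (the seed) pair with target messenger RNAs. miR-223 is made mainly in granulocytes, monocytes and platelets, and miR-142 in blood cells of nearly all lineages. miR-191 and miR-425 are processed from 1 transcript, and miR-21 is broadly expressed and is induced in inflammation. Blood cells shed vesicles that carry these miRNAs into plasma. The umbilical vein carries placental blood towards the fetus, and the umbilical artery carries it back.

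The sequences below are the rows on which the results rest, as the deposited tables give them (DNA letters, 5′ to 3′), with the seed in capitals. They are shown because the arms are told apart by these letters alone.
miR-223-3p: tGTCAGTTtgtcaaataccccaa
miR-191: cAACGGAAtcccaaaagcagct
miR-425-5p: aATGACACgatcactcccgttgagt
miR-339-5p: tCCCTGTCctccaggagctca
miR-21: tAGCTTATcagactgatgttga
miR-142-5p: cATAAAGTagaaagcactact
miR-142-3p: tGTAGTGTttcctactttatgg
No 2 of these 7 arms had the same seed. One other arm in the tables had the seed of miR-21, miR-590-5p, which had a single read, in normal vein. No row outside the 27 had the sequence of a member row. In the RefSeq annotation of Sscrofa11.1 the hairpins MIR191 and MIR425 both lay within DALRD3, with 0 other genes starting between them. The tables name the miR-223 rows after the human miRNA.

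The tables held 7175 reads outside the PC- rows in IUGR vein, 35317 in normal vein, 12327 in IUGR artery and 7527 in normal artery. A level below is an arm's percentage of these reads, and its 95% interval is an exact binomial (Clopper-Pearson) one. The intervals allow for counting error alone, because each condition and vessel had 1 library. PCR copies without molecular identifiers do not count molecules, so the intervals can be too narrow even for that error. A ratio is of such percentages with 0.5 read added to each library, for arms with at least 10 reads in the pair of libraries. The IUGR artery library stood apart: the red cell list (8 miRNA numbers, among them miR-451 and miR-486) took 12.8% of its reads, against 55.5% in normal artery, and the liver list (miR-122, miR-192, miR-194 and miR-215) took 32.8%, against 2.64%. In vein the red cell list took 59.2% in IUGR and 62.7% in normal, and the liver list 2.65% and 0.207%. miR-126, the main endothelial miRNA, was present in all 4 libraries, at 1.67% in IUGR vein, 0.657% in normal vein, 2.43% in IUGR artery and 0.810% in normal artery. The part of these shifts in the results below was not tested, but ratios are also given with the lists taken out of the denominator. Less vesicle release by a cell type and less miRNA per vesicle cannot be told apart in these data.

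Together the 12 arms held 5.28% of reads in IUGR vein (4.76 to 5.81%), against 9.71% in normal vein (9.3995 to 10.02%). In artery they held 2.04% in IUGR (1.80 to 2.31%), against 7.90% in normal (7.31 to 8.54%). The combined level was thus lower in the IUGR library of either vessel, and lowest in IUGR artery. The summed level of other numbers listed as markers of myeloid cells and platelets (miR-146, miR-24, miR-27 and miR-199) went the other way. It was 2.69% in IUGR vein, against 1.22% in normal vein. In artery it was 2.73% in IUGR, against 2.32% in normal, and the intervals overlapped. The arms of this list were split in artery. There miR-24-3p was lower in IUGR (0.069%, against 0.312% in normal), as were miR-27a (0.239%, against 0.531%) and miR-27b-3p (0.418%, against 0.837%). Higher in IUGR artery were miR-146a-5p (0.617%, against 0.0996%), miR-199a-5p (0.629%, against 0.159%) and miR-199a-3p (0.671%, against 0.337%). The lymphoid list (miR-150, miR-342, miR-155 and miR-181) held 0.453% in IUGR vein, against 0.956% in normal vein. In artery it held 0.466% in IUGR, against 0.671% in normal, and the intervals overlapped. Within this list miR-181a went the other way in both vessels. Of the 12 arms, 7 reached 10 reads in each comparison. The other 5 arms, mostly the strand that is discarded, had at most 3 reads over all libraries: miR-339-3p and miR-425-3p had 3 each, miR-223-5p and miR-21-3p 2 each, and miR-191-3p 1. Where such an arm had no read, its level could still be up to 0.0418% in IUGR vein, 0.00849% in normal vein, 0.0243% in IUGR artery and 0.0399% in normal artery, taking 3 reads as the limit.

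miR-223-3p, which restrains granulocyte production and activity in mice, was lower in IUGR in both vessels. It had 50 reads in IUGR vein, or 0.697% (0.518 to 0.918%), against 514 in normal vein, or 1.46% (1.33 to 1.59%). In artery it had 16 reads in IUGR, or 0.130% (0.0742 to 0.211%), against 82 in normal, or 1.09% (0.867 to 1.35%). The log2 ratio of IUGR to normal was -1.05 in vein (-1.51 to -0.64), just past 2-fold, and -3.03 in artery (-3.94 to -2.28), 8.19-fold lower. From high to low, the levels ran normal vein, normal artery, IUGR vein and IUGR artery. The intervals of neighbours in that order overlapped slightly down to IUGR vein, and IUGR artery lay below all others.

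miR-191 and miR-425-5p, the products of 1 transcript, were both lower in IUGR in both vessels. miR-191, which had the highest level of the 12 arms in normal vein but not in the other 3 libraries, had 84 reads in IUGR vein, a level of 1.17% (0.935 to 1.45%), against 1150 in normal vein, or 3.26% (3.07 to 3.45%). It had 13 reads in IUGR artery, or 0.105% (0.0562 to 0.180%), against 83 in normal artery, or 1.10% (0.879 to 1.37%). Normal vein was thus highest, IUGR vein and normal artery did not differ beyond counting error, and IUGR artery was lowest. The log2 ratios of miR-191 were -1.47 in vein (-1.81 to -1.16), 2.77-fold lower in IUGR, and -3.34 in artery (-4.35 to -2.53), 10.1-fold lower.

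miR-425-5p had 9 reads in IUGR vein, or 0.125% (0.0574 to 0.238%), against 156 in normal vein, or 0.442% (0.375 to 0.517%). In artery it had 2 reads in IUGR, or 0.0162% (0.00196 to 0.0586%), against 24 in normal, or 0.319% (0.204 to 0.474%). The normal libraries had overlapping intervals, as did normal artery and IUGR vein, and IUGR vein and IUGR artery touched only at the edge of theirs. Its log2 ratios were -1.74 in vein (-2.97 to -0.85) and -4.00 in artery (-7.42 to -2.29), where the 2 reads leave the size of the difference open by several fold.

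miR-339-5p had the lowest ratios of the 7 arms. It had 46.5 reads in IUGR vein, or 0.648% (0.470 to 0.854%), against 933 in normal vein, or 2.64% (2.48 to 2.81%). In artery it had 8 reads in IUGR, or 0.0649% (0.0280 to 0.128%), against 150.8 in normal, or 2.00% (1.70 to 2.35%). No 2 of these 4 intervals overlapped. The log2 ratio was -2.01 in vein (-2.50 to -1.62), 4.04-fold lower in IUGR, and -4.87 in artery (-6.19 to -3.93), 29.2-fold lower. Counted from the lowest ratio of all arms measured, it held place 14 in vein and place 7 in artery.

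**Figure D1:**
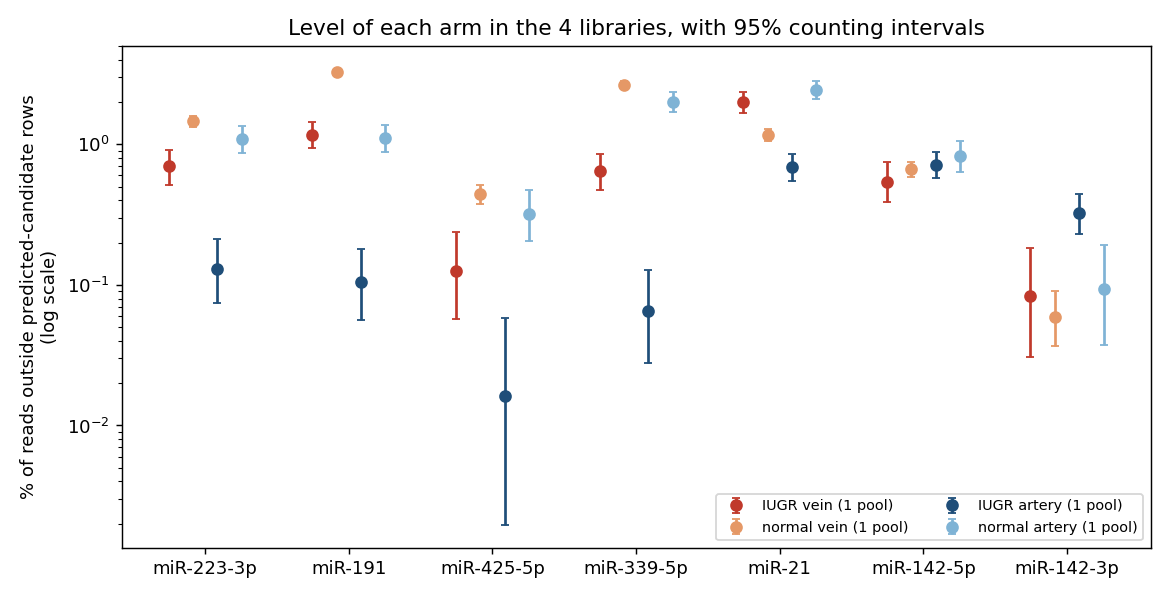
Level of the 7 arms with at least 10 reads in each comparison, as the percentage of reads outside PC- rows on a log axis, in 4 libraries of 1 pool each. Bars are exact 95% binomial intervals for counting error. The IUGR artery points of miR-223-3p, miR-191, miR-425-5p and miR-339-5p lie lowest, between 0.0162% and 0.130%, while the miR-142-5p points lie together between 0.544% and 0.824%.

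miR-339-5p was also the member listed in the most forms, 15 of the 27 rows. The form printed above is the reference end of the pig miRNA, and the next most abundant ended 1 base earlier.
miR-339-5p, reference end: tCCCTGTCctccaggagctca
miR-339-5p, 1 base shorter: tCCCTGTCctccaggagctc
miR-339-5p, longer: tCCCTGTCctccaggagctcact
Reads at the reference end made up 57.0% of the arm in IUGR vein (41.1 to 71.1%), against 59.6% in normal vein (56.4 to 62.8%), and 56.3% in IUGR artery (15.7 to 84.3%), against 56.7% in normal artery (48.7 to 65.0%). The form that is 1 base shorter made up 32.3% in IUGR vein, against 32.1% in normal vein, and 37.5% in IUGR artery, against 31.8% in normal artery. The make-up of the arm did not differ beyond counting error between libraries in which its level differed 29.2-fold, although IUGR artery had only 8 reads to show it. Its reads came in fractions, RefSeq lists 2 pig hairpins for miR-339, and a divided read lowers the level of the arm without changing a ratio in which both libraries are divided alike.

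miR-21, one of the most abundant miRNAs of white cells and platelets, went opposite ways in the vessels. It had 143 reads in IUGR vein, or 1.99% (1.68 to 2.34%), against 413 in normal vein, or 1.17% (1.06 to 1.29%). In artery it had 85 reads in IUGR, or 0.690% (0.551 to 0.852%), against 183 in normal, or 2.43% (2.10 to 2.80%). The log2 ratio was 0.77 in vein (0.48 to 1.05), under 2-fold, and -1.81 in artery (-2.21 to -1.44), 3.51-fold lower in IUGR. The direction in vein depended on the scaling: it was -0.20 with all reads of the tables as the denominator, -0.22 with the scaling of the authors' deposited fold changes and 0.08 with median ratio scaling. As a difference from the median of all arms, which such scalings leave alone, miR-21 stood at 0.65 in vein and -2.19 in artery on the log2 scale.

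The arms of miR-142, a regulator of blood cell development, did not share the low levels of the 4 arms above. miR-142-5p had 39 reads in IUGR vein, or 0.544% (0.387 to 0.742%), against 234 in normal vein, or 0.663% (0.581 to 0.753%). In artery it had 88 reads in IUGR, or 0.714% (0.573 to 0.879%), against 62 in normal, or 0.824% (0.632 to 1.05%). All 4 intervals overlapped, and the log2 ratios were -0.27 in vein (-0.81 to 0.21) and -0.21 in artery (-0.69 to 0.29), so a difference of 2-fold lay outside both intervals. Under other scalings it passed 2-fold, at -1.26 in vein with the scaling of the authors' deposited fold changes, -1.24 there with all reads as the denominator, and -1.18 in artery with the red cell list out of the denominator.

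miR-142-3p had 6 reads in IUGR vein, or 0.0836% (0.0307 to 0.182%), against 21 in normal vein, or 0.0595% (0.0368 to 0.0909%). In artery it had 40 reads in IUGR, or 0.324% (0.232 to 0.442%), against 7 in normal, or 0.0930% (0.0374 to 0.192%). IUGR artery lay above the other 3 libraries, whose intervals overlapped. The log2 ratio was 1.72 in artery (0.63 to 3.21), 3.30-fold higher in IUGR, and 0.57 in vein (-1.11 to 1.85). With the red cell list out of the denominator the artery value was 0.75, and the vein value turned to -0.42 with the scaling of the authors' deposited fold changes and to -0.40 with all reads.

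In vein, 4 of the 7 arms were at least 2-fold lower in IUGR and 0 were higher. Their median log2 ratio was -1.05. Over all arms measured in vein the median was 0.12, and 21.8% were at least 2-fold lower and 24.6% higher. In artery, 5 of the 7 arms were lower by at least 2-fold and 1 was higher. Their median was -3.03. Over all 121 arms the median was 0.38, 38% were lower and 40.5% higher. miR-223-3p, miR-191, miR-425-5p and miR-339-5p were lower in both vessels, as were 13.1% of the 99 arms measured in both. Within a vessel, 1 library per condition gives no test across samples.

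Over both vessels, IUGR and normal had 2 libraries each, and the labels do not say that the libraries of a condition came from different piglets. A quasi-likelihood test in edgeR with vessel as a block, added after the values were seen, called 0% of 140 arms at an adjusted p of 0.05, and so none of the 7. At an unadjusted p under 0.05 it gave 18 arms, among them miR-339-5p, miR-425-5p and miR-191. miR-339-5p had a log2 difference of IUGR minus normal of -3.54 (SE 1.35) and an edgeR adjusted p of 0.183. No arm had a lower adjusted p, though miR-339-5p was not alone in this value. For miR-425-5p the difference was -2.99 (SE 1.43), with an edgeR adjusted p of 0.353. DESeq2 with the same block called 10% of the arms, 14 in all, among them miR-339-5p (DESeq2 adjusted p = 0.00129) and miR-191 (DESeq2 adjusted p = 0.0226). Without the IUGR vein library and without the block, edgeR called 48 arms, among them miR-339-5p, miR-425-5p and miR-191, and leaving out any one of the other 3 libraries gave none. The adjusted p of miR-339-5p thus ran from 0.00129 to 0.995 over the alternatives.

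**Figure D2:**
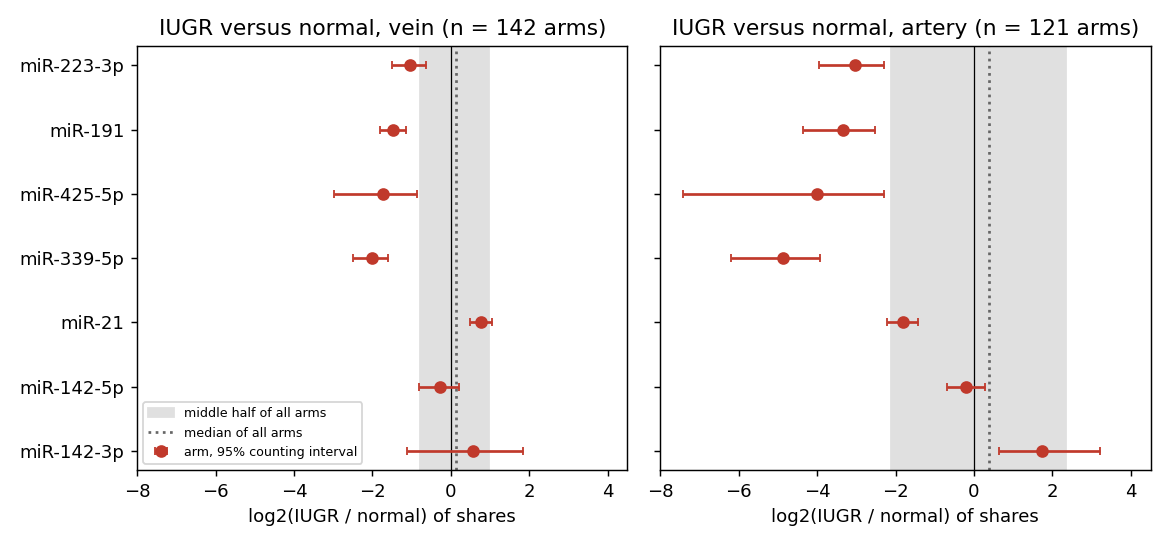
Log2 ratio of IUGR to normal for the 7 arms in vein (left) and artery (right), with exact 95% conditional binomial intervals for counting error. The dotted line is the median of all arms measured (0.12 in vein, 0.38 in artery) and the grey band their interquartile range. miR-223-3p, miR-191, miR-425-5p and miR-339-5p lie left of the band in both vessels.

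The scaling moved these ratios together. In vein the median over all arms was -0.85 with all reads as the denominator, and the arms at least 2-fold apart were then 64 lower and 10 higher, against 31 lower and 35 higher as reported. The scaling of the authors' deposited fold changes gave 65 lower and 10 higher, and median ratio scaling 54 and 15. In artery, taking the red cell list out of the denominator gave 57 lower and 38 higher, against 46 and 49. Relative to the median of all arms, miR-339-5p stood at -2.13 in vein and -5.24 in artery on the log2 scale. In the same vessels miR-425-5p stood at -1.86 and -4.38, miR-191 at -1.59 and -3.72, and miR-223-3p at -1.17 and -3.41. In artery the log2 ratio of miR-223-3p was -4.00 with the red cell list out of the denominator and -2.50 with the liver list out. For miR-339-5p the same settings gave -5.84 and -4.33.

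**Figure D3:**
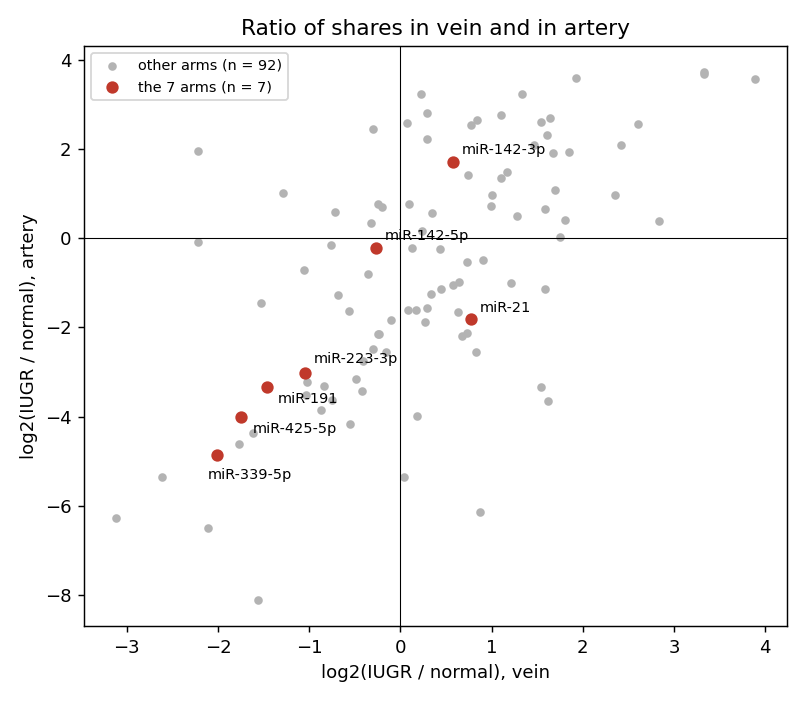
Log2 ratio of IUGR to normal in vein (horizontal) and in artery (vertical) for the 99 arms measured in both, with the 7 arms in red and the other 92 in grey. miR-339-5p, miR-425-5p, miR-191 and miR-223-3p fall in the lower left corner, miR-21 in the lower right, and miR-142-3p in the upper right, at 0.57 and 1.72.

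Ratios of 2 arms within a library need no scaling. miR-191 had 9.33 reads per read of miR-425-5p in IUGR vein (4.69 to 21.1), against 7.37 in normal vein (6.23 to 8.77), and 6.50 in IUGR artery (1.47 to 59.3), against 3.46 in normal artery (2.17 to 5.70). IUGR and normal did not differ beyond counting error within a vessel, whereas normal vein lay above normal artery. miR-223-3p had 1.28 reads per read of miR-142-5p in IUGR vein (0.827 to 2.00), against 2.20 in normal vein (1.88 to 2.57). In artery the value was 0.182 in IUGR (0.0996 to 0.312), against 1.32 in normal (0.939 to 1.87), with no overlap of the intervals.

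The balance of the miR-142 arms also differed between libraries. There were 6.50 reads of the 5p arm per read of the 3p arm in IUGR vein (2.73 to 18.8), against 11.1 in normal vein (7.12 to 18.3). In artery there were 2.20 in IUGR (1.498 to 3.28), against 8.86 in normal (4.05 to 22.9), so the intervals of the artery libraries did not overlap while those in vein did. miR-21 had 2.86 reads per read of miR-223-3p in IUGR vein (2.06 to 4.03), against 0.804 in normal vein (0.704 to 0.916), and 5.31 in IUGR artery (3.09 to 9.71), against 2.23 in normal artery (1.71 to 2.93). The IUGR library was higher in both vessels.

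**Figure D4:**
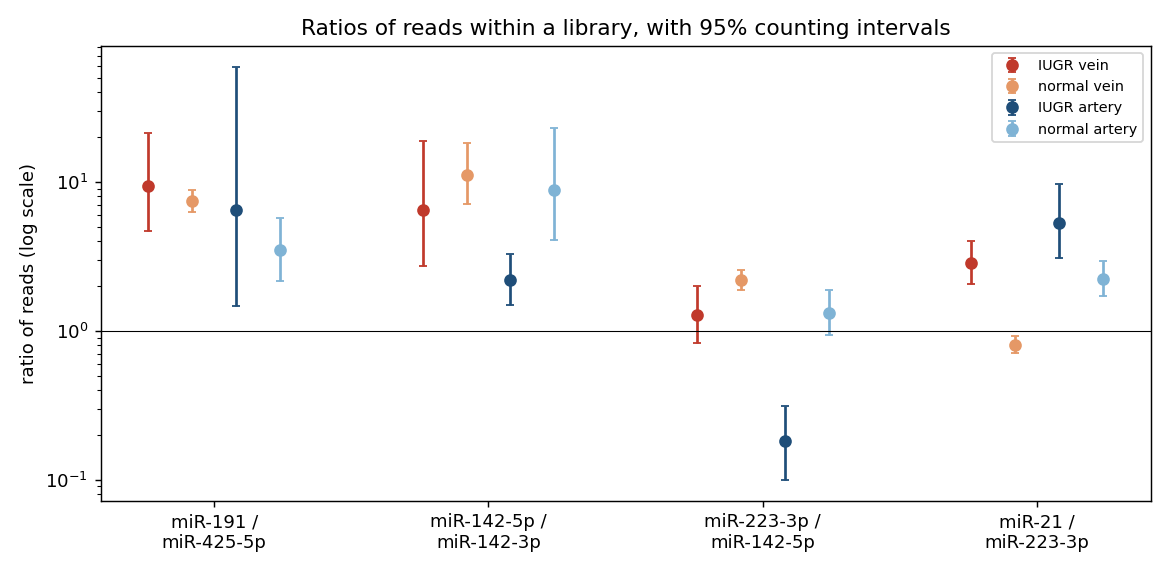
Ratio of reads between 2 arms within each library, on a log axis, with exact 95% intervals for counting error. miR-223-3p to miR-142-5p is lowest in IUGR artery, at 0.182, and the 5p to 3p ratio of miR-142 is also lowest there, at 2.20.

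The base composition of the 7 arms ran alongside their ratios. G and C made up 33.3% of miR-142-5p, 36.4% of miR-142-3p and miR-21, 39.1% of miR-223-3p, 48.0% of miR-425-5p, 50% of miR-191 and 61.9% of miR-339-5p. Across these 7 arms, Spearman's rho between this percentage and the log2 ratio was -0.85 in vein and -0.90 in artery. The 7 share their libraries and were not drawn at random, so this is a description. Over all arms measured rho was -0.47 in vein and -0.38 in artery.

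In vein, 41.3% of the 63 arms with at least 50% G and C were at least 2-fold lower in IUGR, against 6.33% of the 79 arms with less. In artery the figures were 61.9% of 42 arms and 25.3% of 79. miR-223-3p and miR-425-5p were lower in both vessels with less than 50% G and C. The part of base composition in these ratios was not tested.

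**Figure D5:**
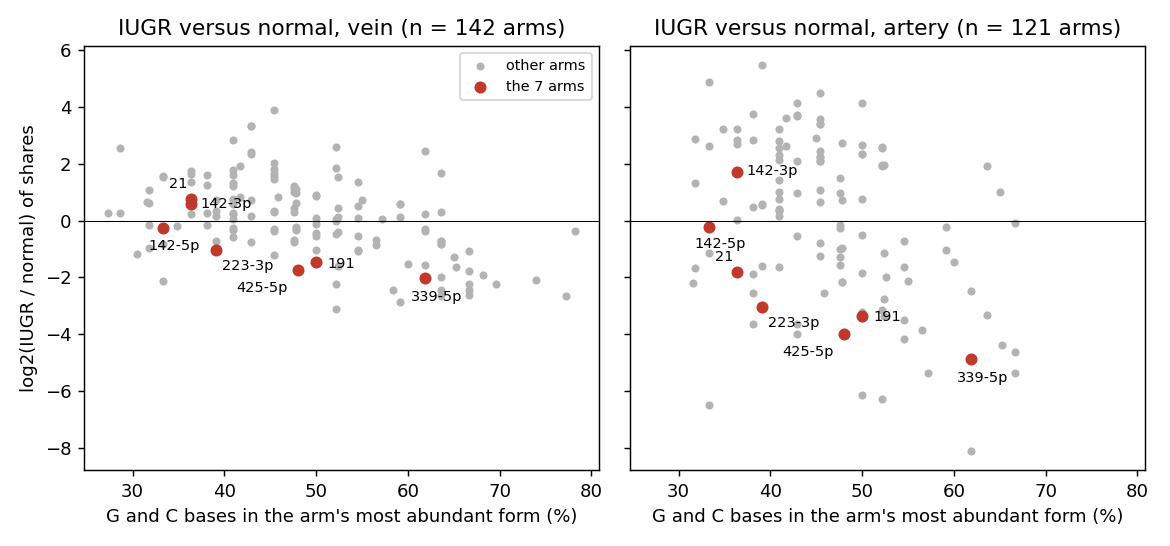
Log2 ratio of IUGR to normal against the percentage of G and C in the most abundant form of each arm, in vein (left) and artery (right), for all arms measured. The 7 arms are in red and labelled by number. miR-339-5p, with 61.9% G and C, is the lowest of the 7 in both panels.

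Vein and artery were also compared, with 2 libraries in each group. A quasi-likelihood test in edgeR over all 4 libraries called 0% of 140 arms at an adjusted p of 0.05, and so none of the 7. At an unadjusted p under 0.05 it gave 18 arms, none of them among the 7, and DESeq2 called 2 arms, again none of the 7. Each vessel held 1 IUGR and 1 normal pool, so the spread within a vessel includes the condition. miR-191 came closest, with a log2 difference of vein minus artery of 2.30 (SE 1.59) and an edgeR adjusted p of 0.552. With the condition as a block the difference was 2.77, with an edgeR adjusted p of 0.395, and over the alternatives that p ran from 0.0920 to 0.998. The lowest of these came without the normal artery library.

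Within a condition the vessels could be set side by side without a test. Among IUGR libraries, miR-191 was 10.8-fold higher in vein than in artery, miR-339-5p 9.50-fold, miR-425-5p 6.53-fold, miR-223-3p 5.26-fold and miR-21 2.88-fold, while miR-142-3p was 3.63-fold lower. In this pair 35.9% of 117 arms were at least 2-fold higher in vein and 40.2% lower. Among normal libraries miR-191 was 2.94-fold higher in vein and miR-21 2.08-fold lower, where 12.1% of 149 arms were higher and 32.2% lower. For miR-223-3p, miR-339-5p and miR-425-5p the normal vessels lay 1.33-fold, 1.32-fold and 1.36-fold apart. These contrasts use the same libraries as those of IUGR with normal.

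Other miRNAs of white cells and platelets, a list of 19 numbers, formed 47 arms, of which 23 were measured in both vessels. In vein 3 were at least 2-fold lower in IUGR and 9 higher (median log2 ratio 0.73), and in artery 9 were lower and 7 higher (median -0.71). Over all arms measured, 21.8% were lower and 24.6% higher in vein, and 38% lower and 40.5% higher in artery. Lower in both were miR-342, a lymphocyte miRNA, and miR-423-3p. In vein miR-342 had 3 reads in the IUGR library and 149 in the normal one, and in artery it had none in the IUGR library and 23 in the normal one. miR-423-3p was 3.06-fold lower in vein and 20.8-fold in artery. Higher in both were miR-26a (3.04-fold and 4.97-fold), miR-126-3p (2.77-fold and 4.27-fold), miR-222 (6.08-fold and 5.94-fold), miR-199a-5p (3.60-fold and 3.81-fold) and miR-107 (2.25-fold and 2.82-fold). The list thus held arms in both directions. miR-150, abundant in mature lymphocytes, was 2.08-fold lower in IUGR vein, with a log2 ratio of -0.71 in artery. By contrast miR-181a, also of the lymphoid list, had log2 ratios of 0.99 in vein and 0.72 in artery.

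The arms most like each member were found by the root mean square difference of centred log2 levels over the 4 libraries, among 102 arms with at least 40 reads that were not members. For miR-223-3p these were miR-25 (0.13), miR-92a-3p (0.20) and miR-15b-5p (0.26), all of the red cell list. For miR-425-5p they were miR-92a-3p (0.30), miR-25 (0.38) and miR-484 (0.39), and for miR-339-5p miR-484 (0.24), miR-1306-5p (0.34) and let-7d-3p (0.55). For miR-191 they were miR-423-5p (0.31), miR-486-5p (0.34) and miR-125a (0.38). miR-21 lay nearest to miR-99a (0.23), miR-24-3p (0.25) and miR-144 (0.31). The arms of miR-142 had other neighbours: miR-128 (0.18), miR-30b-5p (0.35) and miR-10a-5p (0.36) for the 5p arm, and miR-29a (0.14), miR-22-3p (0.21) and let-7f (0.32) for the 3p arm. Between members the smallest of these differences was 0.34, for miR-339-5p and miR-425-5p, nearer than the second of the arms named for miR-425-5p and the third for miR-339-5p. With 4 libraries, such likeness is coarse.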

How the data were processed

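Sequencing gave 36-base single reads, per the labels' protocols. Sscrofa 10.2 is the build named in the submitters' processing notes. No source used here names the aligner or the counter. Each of the 4 deposited tables sets 2 libraries beside each other. The deposited raw columns, headed raw, are estimated counts in which reads shared by rows appear as fractions. The authors' log2 fold changes compare normalized values and, between conditions, run normal over IUGR. They imply 1 factor per library, relative to normal vein 2.47 for IUGR vein, 1.67 for IUGR artery and 3.10 for normal artery. These factors served only as an alternative scaling, with the sign turned to IUGR over normal. The deposited p-value columns were not used.

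Matching on name and sequence gave 664 rows. Where a table lacked a row, its libraries were set to 0. PC- rows held 55.8% of reads in IUGR vein, 13.2% in normal vein, 38.8% in IUGR artery and 45.3% in normal artery, and were left out. Rows were summed by name without species prefix and suffix, and a name without an arm was joined to the same name with one where the seeds matched. Within a vessel, IUGR and normal were compared without a p-value. Vein and artery, and IUGR and normal over both vessels, were tested with edgeR 4.0.16 (quasi-likelihood, TMM, counts rounded, at least 20 reads over 4 libraries, Benjamini-Hochberg adjustment, R 4.3.3) and, as an alternative, DESeq2 1.42.0. Scripts were tested on simulated data. Each vessel held 1 IUGR and 1 normal library, so the spread within a vessel includes the condition.

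Libraries with the same condition letter deviated together from their vessel means (Pearson's r 0.61 across 140 arms). A difference between conditions gives such a value whether or not the libraries share piglets, so it is no check of the pairing. Libraries were paired by the condition letter of the columns alone, which does not say which piglets were pooled. Members, lists and rules were chosen with earlier results of these data known. All member arms are named, other list members where at least 2-fold apart the same way in both vessels, and the 3 most like arms of each member. miR-150, miR-181a, miR-590-5p, miR-146a-5p, miR-199a-3p, miR-27a and miR-27b-3p were named after their values were seen.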

Additional observations from a re-analysis of the deposited data

Results flagged for a closer look

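miR-21 differed in direction between the vessels. Its log2 ratio of IUGR to normal was 0.77 in vein and -1.81 in artery, each from 1 library per condition. The difference between the vessels was not tested. The vein value became -0.20 with all reads as the denominator and -0.22 with the scaling of the authors' deposited fold changes, so the opposite directions held under part of the scalings alone. Relative to the median of all arms the values were 0.65 in vein and -2.19 in artery.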

How the results depend on the processing

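Over 10 alternatives each for IUGR against normal, the ratios of miR-223-3p, miR-191, miR-425-5p and miR-339-5p stayed at least 2-fold lower in both vessels (miR-223-3p in 9, since its rows carry the human prefix and had no value among pig-prefixed rows). In vein miR-223-3p ran from -2.04 to -1.01 and in artery from -4.00 to -2.50. Of 138 member values, 20 left the counting interval of the reported one and none called at 2-fold reversed. Part of these values could not move: other minimum reads leave a ratio unchanged, and a choice of rows leaves arms with 1 row unchanged. With the red cell list out of the denominator, 0 member arms were at least 2-fold higher in artery, against 1, and 6 were lower, against 5. Over all arms 31.4% were then higher in artery and 47.1% lower. With no minimum beyond 1 read, 1 member arm was higher in vein, against 0. In artery 8 member arms were then lower, against 5, because arms of few reads entered. Over all arms the shares were then 32.4% higher in vein and 52.6% lower in artery. With the most abundant row alone, the ratio of miR-339-5p to miR-191 was 0.315 in IUGR vein, 0.484 in normal vein, 0.346 in IUGR artery and 1.03 in normal artery. The other ratios within a library were of arms with 1 row each, so this setting could not move them.

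Between vessels, edgeR called 0 arms with the condition as a replicate block, as without it, and 0 of the 7 members under any alternative. DESeq2 called 2 of all arms, and leaving out each library in turn gave 0 to 1, where the lone library of a vessel is assumed to vary like the other pair. The 1 call came without normal artery. Between conditions over both vessels, edgeR called 0 arms with vessel as a block and 0 without it, DESeq2 called 14 arms and 2 of the 7, and leaving out each library in turn without the block gave 0 to 48 arms and 0 to 3 of the 7. The 48 came without IUGR vein, and these alternatives were chosen after seeing the data. Depth limits the artery values of miR-425-5p, with 2 reads in IUGR.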

Other observations

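Among the 4 arms that were lower in IUGR in both vessels, the balance was not the same in each library. miR-339-5p had 0.554 reads per read of miR-191 in IUGR vein (0.374 to 0.794), against 0.812 in normal vein (0.743 to 0.885), and 0.615 in IUGR artery (0.221 to 1.60), against 1.82 in normal artery (1.38 to 2.41). The vessels of normal piglets thus differed more in this ratio than the conditions in vein, but less than the conditions in artery. The IUGR artery value rested on 8 reads of miR-339-5p. miR-223-3p had 0.595 reads per read of miR-191 in IUGR vein (0.411 to 0.855), against 0.447 in normal vein (0.402 to 0.496), and 1.23 in IUGR artery (0.555 to 2.78), against 0.988 in normal artery (0.719 to 1.36). Artery lay above vein in both conditions, with no overlap of the intervals among normal libraries.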
